A study of Rattus norvegicus with 9 samples.

Results

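The 8 genes described here encode the apolipoproteins of the chylomicron and the machinery that builds and exports it in enterocytes: Apob, Mttp, Sar1b, Apoa1, Apoa4, Apoc2, Apoc3 and Apoe. They were chosen by name, and all 8 were found among the 17120 genes with a usable symbol in the 2 deposited expression tables. Total RNA had been sequenced from the ileum, the last stretch of the small intestine. The animals were Otsuka Long-Evans Tokushima fatty rats, which grow obese and diabetic and lack a working A-type cholecystokinin receptor (CCK-A), a defect that every group shares. There were 3 groups of 3 samples, taken 1 month after surgery: Roux-en-Y gastric bypass (RYGB) with FDG decreased, RYGB with FDG increased, and a sham operation. In RYGB a small pouch of the stomach is connected to the jejunum, and food no longer passes through the duodenum. The labels leave FDG unexplained, and it is read here as fluorodeoxyglucose, a glucose analogue that reports uptake in scans. Neither age nor sex is given, and nothing says that replicates are separate rats, so each p-value reflects the spread of these libraries alone, which may be technical.

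Chylomicrons carry dietary fat from enterocytes into the lymph. Each is built on apolipoprotein B, which the microsomal triglyceride transfer protein (Mttp) loads with lipid in the endoplasmic reticulum. Vesicles whose coat is assembled by the small GTPase Sar1b take the particle to the Golgi. Apolipoproteins A-I and A-IV ride on its surface. In the blood C-II activates the lipase that unloads the particle and C-III restrains it, and E serves as a ligand for uptake by the liver. Fat is normally absorbed mainly upstream of the ileum.

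Values are FPKM, fragments scaled to transcript length and to the mapped fragments of the library, so levels can be compared between genes. A table called the RYGB table holds the FDG-decreased and FDG-increased libraries. The other, called the sham table, holds FDG-increased and sham libraries, and each has its own scaling. FPKM summed to 465697 to 864511 per library, and read depth is unknown. In the sham table the sums were 611736, 624677 and 864511 for FDG-increased replicates 1 to 3. For sham replicates 1 to 3 they were 569504, 495004 and 465697, each below every FDG-increased sum of that table. The part of this offset in the differences from sham ileum was not tested, apart from the alternative scalings given below. The tables share 2 FDG-increased libraries under different numbers: replicates 1 and 2 of the RYGB table are replicates 2 and 3 of the sham table. Their 12 columns thus hold 10 distinct libraries, of which 4 are FDG-increased beside 3 labelled samples, and which of the 4 belongs to which sample is not known. Numbers and lanes given here rest on the column names of the RYGB table. Libraries of the RYGB table that carry the same number deviated alike from their group means, and they are called pairs 1 to 3 here. Villin (Vil1), a brush-border protein, stood at 657, 523 and 319.8 FPKM in FDG-decreased ileum, 621, 492 and 261 FPKM in FDG-increased ileum and 793, 289.9 and 429 FPKM in sham ileum. Sham replicate 1 stood apart and went against its ileal label: Fabp6, which binds bile acids in ileal enterocytes, was at 22.6 FPKM there but at 8375 and 11347 FPKM in sham replicates 2 and 3. Sham replicate 2 also stood apart: Adipoq, the adipocyte hormone adiponectin, was at 0.136, 71.3 and 15.7 FPKM in sham replicates 1 to 3, and the summed level of 6 adipocyte markers was 540.0 FPKM in replicate 2, against 73.5 and 156 FPKM in replicates 1 and 3. The members' differences from sham ileum are given with and without each of these libraries.

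The bases around the start site are shown for Apoa4 and Apoc2, which hold the same short motif, and for Sar1b, which lacks it. These 3 were chosen with their values and the motif known. In the main variance model none of them passed the test between the FDG groups with the replicate number as a block over all 3 pairs. Apoa4 passed that test under the alternative variance model given below. RefSeq promoters (rat build GRCr8), 300 bases with 250 before and 50 after the start site, matched 4 of the 8 members by symbol, Apoe being the other, with 3 windows that lack the motif. Capitals mark AAAGTCC, a core of sites bound by the nuclear receptor HNF4, or its reverse complement. The windows are chr8:55435529-55435828 (plus strand) for Apoa4, chr1:88462316-88462615 (minus strand) for Apoc2 and chr10:36525115-36525414 (plus strand) for Sar1b, each printed 5′ to 3′ along its gene.
Apoa4: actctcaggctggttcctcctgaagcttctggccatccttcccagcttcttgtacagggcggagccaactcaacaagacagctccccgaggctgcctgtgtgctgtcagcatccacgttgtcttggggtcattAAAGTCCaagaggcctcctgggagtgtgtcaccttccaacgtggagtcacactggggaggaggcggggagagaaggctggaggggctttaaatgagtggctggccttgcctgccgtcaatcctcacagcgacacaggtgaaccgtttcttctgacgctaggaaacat
Apoc2: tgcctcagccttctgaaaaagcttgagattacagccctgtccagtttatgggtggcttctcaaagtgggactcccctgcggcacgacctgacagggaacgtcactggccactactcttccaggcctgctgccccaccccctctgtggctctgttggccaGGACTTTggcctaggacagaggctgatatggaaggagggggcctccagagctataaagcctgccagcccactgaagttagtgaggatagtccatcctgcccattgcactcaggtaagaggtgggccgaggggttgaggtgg
Sar1b: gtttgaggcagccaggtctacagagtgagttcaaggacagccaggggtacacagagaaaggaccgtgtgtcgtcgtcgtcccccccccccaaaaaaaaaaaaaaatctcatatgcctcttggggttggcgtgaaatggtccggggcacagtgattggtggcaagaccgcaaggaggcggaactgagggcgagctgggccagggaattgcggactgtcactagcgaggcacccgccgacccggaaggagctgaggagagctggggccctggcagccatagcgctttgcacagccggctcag
The core begins 117 bases before the start site of Apoa4 and, on the other strand, 91 bases before that of Apoc2. Of 33469 RefSeq windows of this length, 4.63% hold it on either strand. The TATA box letters TATAAA, searched on both strands as well, lie 40 bases before the start of Apoc2 and occur in 14.2% of windows. The letters CCAAT lie 98 bases before the start of Sar1b on the other strand and occur in 37.5% of windows. These matches do not overlap one another, and each is a run of letters, not a measured site. In the same annotation Apoa1, Apoc3 and Apoa4 are neighbours on chromosome 8, while Apoc2 and Apoe lie on chromosome 1.

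In RYGB ileum, 7 of the 8 genes were higher in the FDG-decreased than in the FDG-increased library of all 3 pairs, Apoe being the exception. Of the 10739 genes tested, 17.2% were higher in all 3 pairs. Apoa4 and Apoc3 were more than 1.5 times higher in each pair, as were 0.4% of all genes. The difference of group means was positive for 7 of 8 members and 55.2% of all genes. Levels also varied widely between pairs, and 0 of 8 members had groups that did not overlap, against 3.2% of all genes. Differences are on the scale of log2(FPKM + 1), which understates those of low genes, and were tested with limma, with Benjamini-Hochberg adjustment over all genes and a threshold of 0.05. Without regard to pairs, limma called 0 of 8 members and 0% of all genes, and 0 members and 1.02% of all genes had an unadjusted p under 0.05. With the replicate number as a block, limma called 2 members, Apoc3 and Apob, both higher, against 0.447% of all genes called higher and 1.14% called in either direction. At an unadjusted p under 0.05 with the block, 6 of 8 members and 4.81% of all genes were higher. In bulk tissue, fewer cells of a type and less RNA per cell cannot be told apart.

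**Figure D1:**
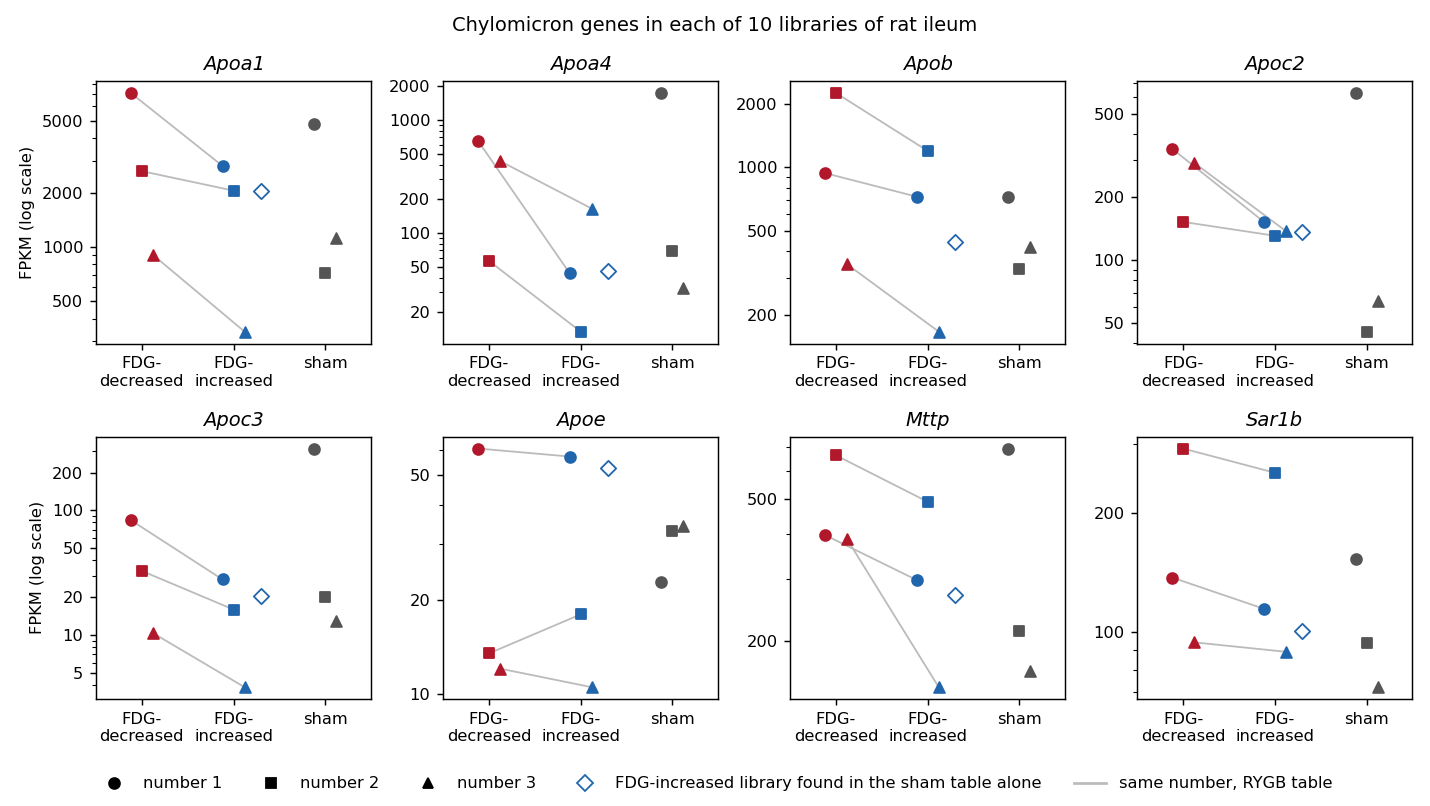
FPKM of the 8 members (log axis) in 10 distinct libraries, with RYGB-table values rescaled to the sham table. Symbols are single libraries by number, grey lines join same-numbered RYGB libraries, and the open diamond is the FDG-increased library found in the sham table alone. Lines lead down from FDG-decreased to FDG-increased except for pair 2 of Apoe, and sham replicate 1 is the highest of the 10 for Apoa4, Apoc2, Apoc3 and Mttp.

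Apob, the scaffold of the particle, stood at 920.5, 2212 and 339.6 FPKM in FDG-decreased ileum, against 711, 1173 and 162 FPKM in FDG-increased ileum. It was 1.29, 1.89 and 2.09 times higher in the FDG-decreased library of pairs 1 to 3, yet FDG-decreased pair 3 lay below FDG-increased pairs 1 and 2. With the block Apob rose by 0.78 (SE 0.158; limma with Benjamini-Hochberg, adjusted p = 0.0454), and without it the SE was 0.898. The call was lost with the block and no filter on low values (adjusted p = 0.1804 by limma), a median shift (0.08297), quantile normalization (0.107), plain variances (0.115) or without pair 1 (0.113). Mttp, which lipidates Apob, had 389, 651 and 379 FPKM in FDG-decreased ileum, against 291, 482 and 146 FPKM in FDG-increased ileum. Its ratios within pairs were 1.34, 1.35 and 2.61, and the difference of 0.74 (SE 0.194 with the block) did not pass (limma with Benjamini-Hochberg, adjusted p = 0.158). Sar1b, whose loss in humans traps chylomicrons inside enterocytes, had 134, 286 and 91.9 FPKM in FDG-decreased ileum, against 112, 248 and 86.9 FPKM in FDG-increased ileum. Its ratios of 1.201, 1.15 and 1.06 were small, with a difference of 0.18 (SE 0.128) and an adjusted p of 0.791 by limma with the block. All 3 of these genes were highest in pair 2, in FDG-decreased and in FDG-increased ileum alike. Pair 2 also had the largest FPKM sums of the RYGB table, 827636 in FDG-decreased and 847267 in FDG-increased ileum. By rank among all genes, Mttp stood at 195 in FDG-decreased pair 2 and higher, at 177, in FDG-decreased pair 3.

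Apoa4, known for its rise during fat absorption and as a satiety signal, had the largest difference among the members. It stood at 638, 55.3 and 422 FPKM in FDG-decreased ileum, against 43.02, 13.1 and 160.2 FPKM in FDG-increased ileum. In the FDG-decreased library of pairs 1 to 3 it was 14.8, 4.23 and 2.63 times higher, so the ratio itself varied between pairs. The difference was 2.42 (SE 1.12 without and 0.615 with the block), and 0.121% of all genes differed by more. Apoa4 did not pass with the block (limma with Benjamini-Hochberg, adjusted p = 0.426). It passed with the block and plain variances (limma adjusted p = 0.0455), without pair 1 (0.00839) and without pair 3 (0.0145). A fit without a pair leaves few libraries to estimate the variance of a gene, so its p-values lean more on variances pooled over all genes. Apoa1, the main protein of high density lipoprotein, had 6978, 2573 and 885 FPKM in FDG-decreased ileum, against 2749, 2006 and 332 FPKM in FDG-increased ileum. It was the most abundant member, ranking 6 among all genes by FPKM in FDG-decreased pair 1 and 195 in FDG-increased pair 3. Its ratios were 2.54, 1.28 and 2.67, and its difference of 1.04 (SE 0.206 with the block) just missed the threshold (limma with Benjamini-Hochberg, adjusted p = 0.0581).

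Apoc3, which restrains lipoprotein lipase, had 81.8, 31.98 and 10.2 FPKM in FDG-decreased ileum, against 27.3, 15.7 and 3.73 FPKM in FDG-increased ileum. Its ratios of 2.995, 2.04 and 2.72 lay close together, while FDG-decreased pair 3 was below FDG-increased pairs 1 and 2. With the block Apoc3 rose by 1.26 (SE 0.154; limma with Benjamini-Hochberg, adjusted p = 0.00422), against an SE of 0.857 without it. It passed under all 5 other settings of pseudocount, filter, scaling and variance tried with the block, and missed the threshold without pair 1 (limma adjusted p = 0.0618). Apoc2, the activator of the same lipase, had 333, 149 and 286 FPKM in FDG-decreased ileum, against 149, 128 and 135 FPKM in FDG-increased ileum. FDG-increased libraries were nearly level, and FDG-decreased pairs 1 and 3 stood above all of them. Its ratios were 2.24, 1.16 and 2.12, and the difference of 0.82 (SE 0.186 with the block) did not pass (limma with Benjamini-Hochberg, adjusted p = 0.08897). Apoe, which macrophages and liver make in quantity, had 59.4, 13.2 and 11.8 FPKM in FDG-decreased ileum, against 56.03, 17.6 and 10.3 FPKM in FDG-increased ileum. Its ratios were 1.06, 0.751 and 1.15, its difference was -0.041 (SE 0.156 with the block) and its limma adjusted p was 0.983. Pair 1 was the highest for Apoe in both groups. Of 11 macrophage markers, 3 were higher and 8 lower in FDG-decreased ileum (median -0.26), with a summed level of 2111 to 7522 FPKM in FDG-decreased and 2037 to 7857 FPKM in FDG-increased ileum. A few high genes carry such a sum. The mean log2(FPKM + 1) of the macrophage list was 3.42 to 4.87 in FDG-decreased and 3.11 to 5.57 in FDG-increased ileum.

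**Figure D2:**
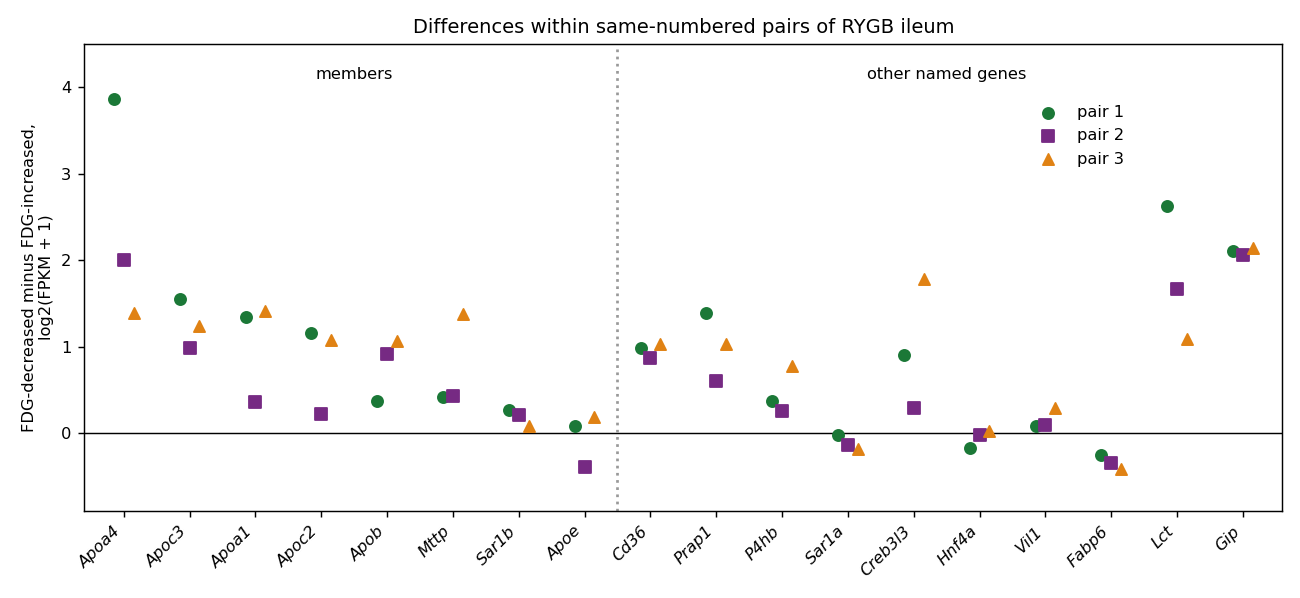
FDG-decreased minus FDG-increased RYGB ileum in log2(FPKM + 1) within each of 3 same-numbered pairs (symbols), for the 8 members and other genes named in the text. Points above 0 are higher in FDG-decreased ileum, and 7 members lie above 0 in all pairs, with Apoa4 at 3.86, 1.999 and 1.39 and Sar1b at 0.26, 0.204 and 0.079.

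**Figure D3:**
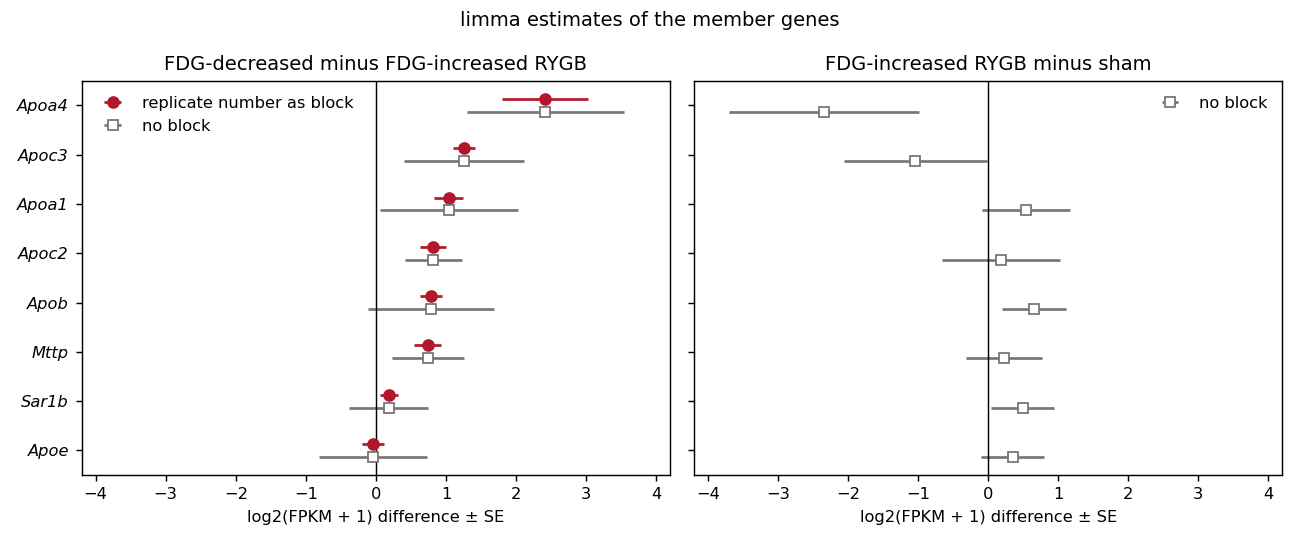
Limma differences (points) with 1 SE (bars) in log2(FPKM + 1), for FDG-decreased minus FDG-increased RYGB ileum (left, with and without the replicate block) and FDG-increased RYGB minus sham ileum (right). On the left the SE of Apoc3 is 0.154 with and 0.857 without the block, and on the right Apoa4 lies at -2.35 with an SE of 1.36.

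Of 30 listed helpers of chylomicron assembly and export, 24 were tested, that is, had a mean of at least 1 FPKM. Of these, 18 were higher and 6 lower in FDG-decreased ileum, with a median difference of 0.22, against 0.022 over all genes. In all 3 pairs, 11 were higher and 3 lower, and with the block limma called 2 higher and 0 lower. Cd36, a receptor for fatty acid uptake, had 126, 348 and 72.03 FPKM in FDG-decreased ileum, against 63.4, 190.5 and 34.8 FPKM in FDG-increased ileum. With the block Cd36 rose by 0.96 (SE 0.128; limma with Benjamini-Hochberg, adjusted p = 0.005604). Prap1, a lipid-binding protein that aids Mttp in mouse, had 114, 52.2 and 18.8 FPKM in FDG-decreased ileum, against 43.03, 33.95 and 8.72 FPKM in FDG-increased ileum, and rose by 1.01 (SE 0.164; limma adjusted p = 0.0174 with the block). The other 9 that were higher in all 3 pairs were P4hb, the partner subunit of Mttp, the fatty acid binding proteins Fabp1 and Fabp2, the cargo receptor Surf4, the vesicle coat genes Sec13, Sec23a, Sec24a and Sec31a, and the lipid droplet gene Plin2, most of them named after their values were seen. P4hb differed by 0.47 (SE 0.146) and did not pass (limma adjusted p = 0.239 with the block). Sar1a, the close relative of Sar1b, differed by -0.023, -0.14 and -0.18 in pairs 1 to 3, against 0.26, 0.204 and 0.079 for Sar1b. The ratio of Sar1b to Sar1a was 3.24, 3.84 and 1.91 in FDG-decreased ileum, against 2.66, 3.02 and 1.59 in FDG-increased ileum, higher in FDG-decreased ileum in each pair.

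Of 20 other apolipoproteins and lipoprotein partners, 8 were tested, and Apoa5, the neighbour of Apoa4, was below the filter. Of the tested, 2 were higher and 6 lower in FDG-decreased ileum (median -0.047), and limma called 0 with or without the block. Of 23 transcription factors of enterocyte lipid genes, 14 were higher and 9 lower (median 0.13), and limma called 0 with or without the block. Hnf4a, which encodes an HNF4 receptor, had 201, 207 and 155 FPKM in FDG-decreased ileum, against 226, 210.1 and 152 FPKM in FDG-increased ileum, a difference of -0.054 (SE 0.129 with the block). Creb3l3, a membrane-bound factor that acts on Apoa4 and Apoc2 in mouse liver, had 328, 177 and 178 FPKM in FDG-decreased ileum, against 176, 145 and 51.1 FPKM in FDG-increased ileum. Creb3l3 was higher in FDG-decreased ileum in all 3 pairs, by 0.899, 0.29 and 1.78, and did not pass (limma adjusted p = 0.233 with the block).

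Markers of the upper intestine were higher beside these genes. Of 12 proximal markers tested, 10 were higher and 2 lower in FDG-decreased ileum (median 0.59), 8 of them higher in all 3 pairs, and limma with the block called 2, Gip and Lct. Gip, a hormone of the duodenum and jejunum, had 4.15, 6.89 and 12.9 FPKM in FDG-decreased ileum, against 0.1998, 0.887 and 2.17 FPKM in FDG-increased ileum, and rose by 2.101 (SE 0.163; limma adjusted p = 3.18e-04 with the block). Lct, lactase, had 8.397, 4.36 and 1.39 FPKM in FDG-decreased ileum, against 0.521, 0.683 and 0.128 FPKM in FDG-increased ileum, and rose by 1.795 (SE 0.2702; limma adjusted p = 0.01905 with the block). Both were low in RYGB ileum. Gata4, a transcription factor of the proximal intestine, had 6.16, 1.01 and 26.4 FPKM in FDG-decreased ileum, against 0.04102 and 0.590 FPKM in FDG-increased pairs 2 and 3, and was listed at 0 in FDG-increased pair 1. The summed level of the proximal list was 3766 to 8645 FPKM in FDG-decreased and 1534 to 5861 FPKM in FDG-increased ileum. Of 10 distal markers, 3 were higher and 7 lower (median -0.23), with a summed level of 7532 to 22640.0 FPKM in FDG-decreased and 10342 to 27122 FPKM in FDG-increased ileum. Most of that sum was Fabp6, at 5399 to 17759 FPKM in FDG-decreased and 7218 to 22497.5 FPKM in FDG-increased ileum. The mean log2(FPKM + 1) of the distal list was 6.42 to 8.20 in FDG-decreased and 6.54 to 8.09 in FDG-increased ileum. Cubn, a receptor for vitamin B12 uptake in the ileum, rose by 2.03 (SE 0.224; limma adjusted p = 0.00555 with the block), while Fabp6 differed by -0.26, -0.34 and -0.42 in pairs 1 to 3. Of 13 epithelial markers, 5 were higher and 8 lower (median -0.0204), and Alpi, intestinal alkaline phosphatase, was called with the block (1.08, SE 0.203; limma adjusted p = 0.0471). Relative to villin or to the epithelial mean, 6 of 8 members were higher in all 3 pairs, all but Sar1b and Apoe. Relative to the proximal mean, 2 of 8 were higher in all 3 pairs, Apoa4 and Apoc3, and 2 were lower, Apoe and Sar1b. The epithelial mean itself differed by 0.029, -0.030 and 0.22 in pairs 1 to 3. The proximal mean was 5.27, 4.93 and 4.52 in FDG-decreased pairs 1 to 3, against 4.14, 4.39 and 3.36 in FDG-increased pairs. The shares of all genes on these scales were not computed, so these counts have no background beside them. The part of intestinal position in the FDG difference was not tested.

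**Figure D4:**
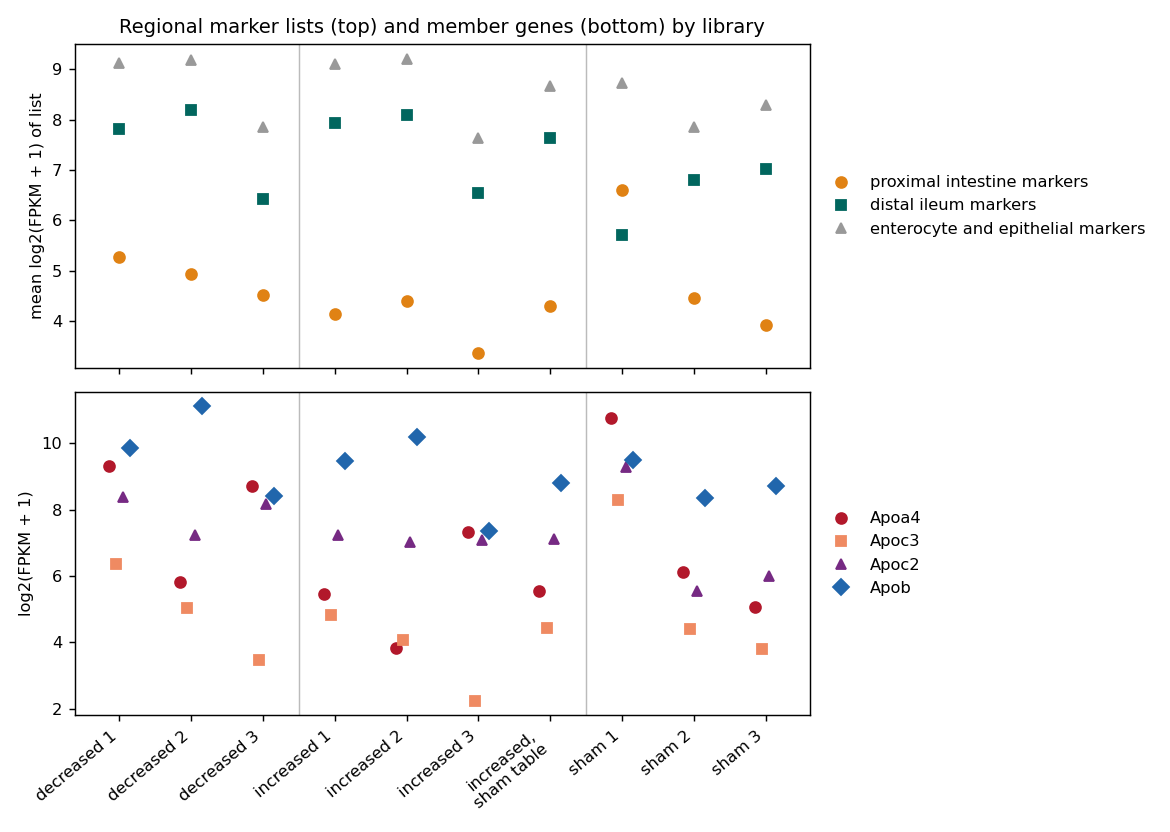
Mean log2(FPKM + 1) of the proximal, distal and epithelial marker lists (top) and log2(FPKM + 1) of 4 members (bottom) in each of 10 libraries, each on the scale of its own table. The proximal mean is 4.52 to 5.27 in FDG-decreased and 3.36 to 4.39 in FDG-increased libraries of the RYGB table and 3.92 to 6.61 in sham libraries, where sham replicate 1 is the highest.

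Against sham ileum, no member passed the test in FDG-increased RYGB ileum, which does not show that the levels were alike. Limma with Benjamini-Hochberg adjustment called 0 of 8 members and 0.037% of 10801 genes, and at an unadjusted p under 0.05 stood 0 members and 7.84% of all genes. With the replicate number as a block limma called 0 members and 0.361% of all genes. Groups that did not overlap were found for 0 of 8 members and 15.1% of all genes. The difference was positive for 6 of 8 members and 64.7% of all genes, whose median was 0.13. It was 0.65 (SE 0.457) for Apob, 0.54 (SE 0.6296) for Apoa1, 0.49 (SE 0.4505) for Sar1b and 0.35 (SE 0.448) for Apoe. For Mttp it was 0.23 (SE 0.543), for Apoc2 0.18 (SE 0.841), for Apoc3 -1.04 (SE 1.02) and for Apoa4 -2.35 (SE 1.36). Adjusted p by limma lay between 0.731 and 0.978. With quantile normalization Apoa1, Mttp and Apoc2 turned negative, at -0.397, -0.19 and -0.103. By the labels all 3 sham libraries were sequenced on lane 7, and FDG-increased libraries on lanes 7, 4 and 4. With the lane 7 libraries alone, a single FDG-increased library assumed to vary like the sham libraries, the members' differences lay between -1.82 (Apoa4) and 0.93 (Apoe), and limma called 0 members and 3 genes, with 425 genes at an unadjusted p under 0.05.

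Sham replicate 1 carried much of the spread of most members among sham libraries. Apoa4 had 45.99, 44.01 and 13.4 FPKM in FDG-increased ileum, against 1719, 68.7 and 32.3 FPKM in sham ileum, replicates 1 to 3. Apoc3 had 20.6, 27.9 and 15.99 FPKM in FDG-increased ileum, against 314, 20.2 and 12.9 FPKM in sham ileum, and Apoc2 had 136, 153 and 131 FPKM in FDG-increased ileum, against 628, 45.6 and 63.6 FPKM in sham ileum. For each of these genes sham replicate 1 lay far above every other library of the table. It held 34.05 times as much Apoa4 as the mean of the other sham libraries, 18.9 times as much Apoc3, 11.5 times as much Apoc2, 5.24 times as much Apoa1 and 3.67 times as much Mttp. For Apob, Sar1b and Apoe the ratio was 1.94, 1.85 and 0.675. Mttp had 270.2, 297 and 492 FPKM in FDG-increased ileum, against 695, 214 and 165 FPKM in sham ileum, and Apob had 443, 727 and 1197 FPKM in FDG-increased ileum, against 726, 328 and 420.0 FPKM in sham ileum. In the same order of sham replicates Lct stood at 253, 8.60 and 0.317 FPKM, Gip at 81.2, 10.7 and 3.698 FPKM and Gata4 at 59.8, 9.82 and 0.0853 FPKM, so the proximal markers were also highest in sham replicate 1. Their part in the members' levels was not tested.

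Without sham replicate 1, which leaves sham replicates 2 and 3, 7 members were higher in FDG-increased than in sham ileum, and Apoa4 differed by -0.63 (SE 0.607). Apoc2 differed by 1.36 (SE 0.319) and Apoa1 by 1.34 (SE 0.334), with adjusted p of 0.441 and 0.458 by limma with Benjamini-Hochberg. Apoc3 was then positive, at 0.35 (SE 0.343), so its direction rested on that library. Apob, Mttp, Sar1b and Apoe differed by 0.97, 0.85, 0.79 and 0.17, and 0 of the 8 passed. Limma then called 1 gene, with 1038 of 10801 genes and 2 of 8 members at an unadjusted p under 0.05, and 63.7% of all genes were positive. Without sham replicate 2 instead, Apoa1 and Apoc2 turned negative, at -0.024 (SE 0.612) and -0.52 (SE 0.826). Apoa4, Apoc3 and Mttp were then at -2.94, -1.59 and 0.0077, and Apob, Apoe and Sar1b at 0.397, 0.43 and 0.44. Limma called 0 genes without that library, with 490 at an unadjusted p under 0.05. Of 13 epithelial markers, 12 were higher in FDG-increased ileum (median 0.72), and 13 without sham replicate 1 (median 0.92), with a list mean of 8.66 to 9.24 in FDG-increased and 7.86 to 8.72 in sham ileum. Of 10 distal markers, 9 were higher (median 1.45, and 1.096 without sham replicate 1), with a summed level of 19419 to 27674 FPKM in FDG-increased and 2021 to 12881 FPKM in sham ileum. Most of that sum was Fabp6, except in sham replicate 1, where Fabp6 stood at 22.6 FPKM. The mean log2(FPKM + 1) of the distal list was 7.63 to 8.12 in FDG-increased and 5.72 to 7.02 in sham ileum. Of 9 adipocyte markers, 1 was higher and 8 were lower (median -1.02, and -1.52 without sham replicate 1), with a summed level of 6 of them of 70.6 to 121 FPKM in FDG-increased and 73.5 to 540.0 FPKM in sham ileum. The part of these cell types in the members' differences was not tested. Replicate 3 of the FDG-increased group in the RYGB table is not in the sham table. On the scale of the sham table it had 339 FPKM of Apoa1, 166 of Apob, 149 of Mttp and 3.81 of Apoc3, each below all sham libraries. Its 164 FPKM of Apoa4 were above sham replicates 2 and 3. The epithelial mean of that library was also the lowest of all, at 7.64.

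Apoe had 52.7, 57.3 and 17.9 FPKM in FDG-increased ileum, against 22.8, 33.2 and 34.4 FPKM in sham ileum. Of these, FDG-increased replicate 3 lay below all sham libraries, and replicates 1 and 2 lay above. The FDG-increased library found in the RYGB table alone had 10.5 FPKM on the scale of the sham table, also below all sham libraries. Macrophage markers were higher for 9 and lower for 2 of 11 in FDG-increased ileum (median 1.07, with or without sham replicate 1), with 0 called by limma and a summed level of 3354 to 8016 FPKM in FDG-increased and 1974 to 3757 FPKM in sham ileum. Here too a few high genes carry the sum, and the mean log2(FPKM + 1) of the list was 5.01 to 5.60 in FDG-increased and 4.29 to 4.68 in sham ileum. The part of macrophage markers in Apoe was not tested. Among the helpers 15 were higher and 9 lower (median 0.13), against 21 higher and 3 lower without sham replicate 1 (median 0.38), with 0 called by limma in either. Those that differed most were the lipid droplet and lipoprotein gene Cideb, at 0.72 (SE 0.465), and the vesicle fusion gene Vamp7, at 0.67 (SE 0.286), and without sham replicate 1 they were at 1.19 and 0.74. Among the transcription factors, Nr1h4, the bile acid receptor, had 48.2, 87.7 and 126 FPKM in FDG-increased ileum, against 20.2, 41.3 and 46.2 FPKM in sham ileum, a difference of 1.24 (SE 0.449) that did not pass (limma adjusted p = 0.5797), or 0.88 (SE 0.444) without sham replicate 1.

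FDG-decreased and sham libraries are in different tables and are set side by side on the scale of the sham table, without a test. The difference of log2 means was 1.01 for Apoc2, 0.96 for Apob, 0.71 for Apoa1, 0.68 for Mttp, 0.67 for Apoa4 and 0.62 for Sar1b, with -0.43 for Apoe and -0.51 for Apoc3. Without sham replicate 1 it was 2.39 for Apoa4, 2.18 for Apoc2, 1.52 for Apoa1, 1.31 for Mttp, 1.28 for Apob, 0.92 for Sar1b, 0.89 for Apoc3 and -0.62 for Apoe. With 1 sham library left out in turn, Apoa4 ranged from -0.45 to 2.39 and Apoc3 from -1.36 to 0.89, so both changed sign. The other 6 kept theirs, at 0.301 to 2.18 for Apoc2, 0.71 to 1.28 for Apob, 0.15 to 1.52 for Apoa1, 0.28 to 1.31 for Mttp, 0.38 to 0.92 for Sar1b and -0.62 to -0.33 for Apoe. For Apoc2, Mttp and Sar1b all 3 FDG-decreased libraries were above sham replicates 2 and 3, and for Apoa1, Apoa4, Apob and Apoc3 2 of 3 were. The shares of all genes that lay so were not computed, so these counts have no background and mark nothing particular to the members. Sham replicate 1 was above all FDG-decreased libraries for Apoa4, Apoc2, Apoc3 and Mttp.

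The members did not keep fixed proportions to each other. The ratio of Apoa4 to Apob, which does not depend on the scaling of a library, was 0.694, 0.02501 and 1.24 in FDG-decreased pairs 1 to 3, 0.0605, 0.0112 and 0.986 in FDG-increased pairs and 2.37, 0.2098 and 0.0768 in sham ileum. It was higher in the FDG-decreased library of each pair, and pair 3 and sham replicate 1 had high values. The ratio of Apoc3 to Apoa1 was 0.0117, 0.0124 and 0.0115 in FDG-decreased pairs, 0.00993, 0.00781 and 0.0113 in FDG-increased pairs and 0.0653, 0.0281 and 0.0116 in sham ileum. It varied less among RYGB than among sham libraries, and was highest in sham replicate 1. Over the 6 libraries of the RYGB table Pearson's r was 0.98 for Apoc3 with Apoa1, 0.12 for Apoc3 with Apoa4, 0.86 for Apoa4 with Apoc2 and 0.89 for Apob with Sar1b. Over the 6 libraries of the sham table, in the same order, it was 0.74, 0.96, 0.73 and 0.90. Apoc3 thus went more with Apoa1 in the RYGB table and more with Apoa4 in the sham table, which includes sham replicate 1. Each value describes 6 libraries that differ in tissue makeup, whose part in the correlations was not tested.

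Among 6328 genes averaging at least 10 FPKM in both tables, those most like Apoa4, by the smaller of its correlations in the tables, were RGD1311946 (0.93), Entpd7 (0.93), Ada (0.92), Furin (0.91) and Nelfb (0.89). Ada, adenosine deaminase, is on the proximal list. The correlations in the sham table include sham replicates 1 and 2, and the tables have 2 libraries in common. For Apob they included Cers2, a ceramide synthase (0.98), Rnf167 (0.97), Anks4b, a brush-border protein (0.97), and Tmem106a (0.96). For Apoe they were the transcription factor Cebpd (0.91), Sct, the hormone secretin (0.84), Phldb1 (0.83), Zfp496 (0.799) and Gdf15 (0.798). Sct, like Ada, is on the proximal list.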

How the data were processed

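Total RNA of rat ileum was measured in 9 labelled samples. The authors deposited FPKM per gene and library in 2 tables of 17145 rows. The submitters' processing notes name bcl2fastq 1.8.4, STAR 2.6.0a, Cufflinks 2.2.1, Cuffdiff and DESeq2 1.24.0 with no order, and the human build hg19 although the symbols are of rat, so coordinates come from RefSeq alone. Depth is not known, which leaves no basis for counting intervals.

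Rows whose symbol had become a date (25) were dropped. Genes averaging 1 FPKM or more across the 6 columns of a table were tested, two-sided, as log2(FPKM + 1) in limma 3.58.1 (R 4.3.3; trend, robust), without covariates, with Benjamini-Hochberg adjustment over all genes; the script was tested on simulated data. Groups follow the sample titles. Deviations from group means correlated at 0.85, 0.76 and 0.77 between same-numbered libraries of the RYGB table, and the replicate number was used as a block as well. The labels do not say what a number shares; by the labels pairs 1 and 2 each shared a sequencing lane, pair 3 did not. In the sham table the same check gave 0.35, -0.498 and -0.246. Shared libraries were found by a constant ratio (over 99.9% of genes within 1%), and the RYGB table was multiplied by 1.02 where levels are set across tables. The members, gene lists (165 genes, 5 in more than 1 list), motifs and tests were chosen with earlier results of these data known. Named genes are the members, list genes past the threshold, the 2 of a list with the largest difference, and genes needed as background; some genes that the rule names are not reported here. The adipocyte, glia, lymphatic and hepatocyte lists had 0 genes called. Alternatives were the pseudocount, filter, scaling, variance model, block, lane and each replicate left out.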

Additional observations from a re-analysis of the deposited data

How the results depend on the processing

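Between FDG-decreased and FDG-increased ileum, limma called 0 genes without the replicate block and 122 with it. With the block it called 123 at a pseudocount of 0.1, 32 with no filter, 101 after a median shift, 90 after quantile normalization and 72 with plain variances. Leaving out 1 replicate gave 0 to 1 genes without the block, and leaving out pair 1, 2 or 3 gave 39, 370 and 345 with it. Fits without a pair have few libraries left for the variance of each gene, so their calls lean more on variances pooled over all genes. Combinations with the block were chosen after seeing the data. Apob passed with the replicate block (0.78), also at a pseudocount of 0.1 (0.78). Apoc3 passed with it (1.26), at a pseudocount of 0.1 (1.34), with no filter (1.26), after a median shift (1.24), after quantile normalization (1.21) and with plain variances (1.26), as did Apoa4 in the last (2.42). With the block and pair 2 left out, Apoa1 (1.38), Apob (0.72), Apoc2 (1.12) and Apoc3 (1.39) passed and Apoe was 0.13. With pair 3 left out, Apoa1 (0.85), Apoa4 (2.93), Apob (0.64), Apoc2 (0.69) and Apoc3 (1.27) passed, and with pair 1 left out Apoa4 did (1.69). With 1 library left out and no block, Apob ranged from -0.046 to 1.47, Apoe from -0.76 to 0.62 and Sar1b from -0.27 to 0.62. Between FDG-increased and sham ileum, the 4 genes called became 1 at a pseudocount of 0.1, 0 with no filter (limma, 1055 at an unadjusted p under 0.05), 1 after a median shift, 0 after quantile normalization (limma, 812 at an unadjusted p under 0.05) and 39 with the replicate block, whose numbers do not pair these libraries, and 0 to 13 with 1 library left out. Quantile normalization reversed Apoa1 (-0.397), Apoc2 (-0.103) and Mttp (-0.19). With 1 library left out Apoa1 ranged from -0.024 to 1.34, Apoc2 from -0.52 to 1.36, Apoc3 from -1.895 to 0.35 and Mttp from -0.18 to 0.85. Lane 7 alone leaves a single pair in the RYGB table, with no test. The causes were not tested.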
